A study of Mus musculus with 10 samples.

Results

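The non-fibrillar collagens of the mouse left ventricle were measured after transverse aortic banding (TAB), which narrows the aorta and makes the heart pump against a raised pressure. They were taken as every probe of the mRNA array whose symbol is that of a collagen chain, leaving out the fibrillar chains Col1a1, Col1a2, Col2a1, Col3a1, Col5a1, Col5a2, Col5a3 and Col11a1. This gave 41 probes for 35 genes, out of 26423 probes for 19942 genes on the array. Probes with values below 1 on some arrays were kept. The rule uses names only, so it also keeps Col11a2, Col24a1 and Col27a1, which belong to the fibrillar class by structure, and it does not take Col26a1, which the array lists under the older symbol Emid2.

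Fibrillar collagens form the ropes of the interstitial matrix, whereas the chains described here build sheets, fine filaments and links. Type IV collagen is the network of the basement membrane that surrounds each cardiomyocyte and each capillary, and types XV and XVIII sit where that membrane meets the interstitium. Type VI forms beaded filaments beside it, type VIII forms short-chain networks around vessels, and the FACIT group (fibril-associated collagens with interrupted triple helices) sits on the surface of fibrils.

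The hearts came from male C57BL/6J mice, 8-week of age and 20-25 g in weight at surgery, which received TAB or a sham operation without narrowing. RNA of the left ventricle was taken on days 3, 5, 7, 14 and 28, with 1 array per operation and day, thus 5 TAB and 5 sham arrays. The number of mice behind a sample is not stated, and 1 label of the TAB sample of day 14 reads 15 days. Because no day has a replicate, the days served as the replicates of an average TAB effect, and the p-values measure the spread between these samples.

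All levels below are normalized intensities, on a scale common to the 10 arrays, and they are compared only between arrays of the same probe. The raw median intensity ran from 34 to 55 on the TAB arrays and from 42 to 57 on the sham arrays. Depending on the array, a flag marks 40.2% to 47.3% of spots, most of all on the TAB array of day 3, and it was read as a spot that the image software did not find. Of the 41 collagen probes, 18 were found on all 10 arrays, 10 on some and 13 on none. With 5 arrays per operation, the precision of each value is limited by that number.

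Averaged over the 5 days, 10 of the 41 collagen probes were higher after TAB and 0 were lower at an adjusted p under 0.05 (limma with day as a block, Benjamini-Hochberg over all probes). Of all probes on the array, 0.999% were called higher and 0.401% lower by the same fit. The 10 called genes were Col4a1 and Col4a2 of the basement membrane network, Col15a1, the beaded filament chains Col6a1 and Col6a2, both type VIII chains Col8a1 and Col8a2, and the FACIT chains Col12a1, Col14a1 and Col16a1. At an unadjusted p under 0.05, 20 collagen probes were higher and 3 were lower, against 12.1% and 13.2% of all probes. The median log2 ratio of TAB over sham was 0.76 over the 41 probes and -0.05 over all probes. The 0.76 depends on the treatment of dim spots, and it fell to 0.10 with 50 added and to 0.11 with a floor at found spots. Over the 23 collagen probes found on at least 5 arrays the median was 1.39, against -0.05 over all such probes.

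Among the 18 collagen probes found on all 10 arrays, 8 were called higher, against 1.39% of all such probes. For 12 of the 18, every TAB array lay above every sham array, which held for 11.3% of all probes found on all arrays. For 0 of the 18 did every TAB array lie below every sham array, against 10.5%. These 12 probes were those of Col4a1, Col4a2, Col6a1, Col6a2, Col6a3, Col8a1, Col8a2, Col14a1, Col15a1 and Col18a1 and both probes of Col4a5. The count of 12 was the same under each scaling tried, raw intensity included.

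The calls at the adjusted threshold changed with the days and with the scaling. When day 3, day 5, day 7 or day 14 was left out, the fit called 0 collagen probes. At an unadjusted p under 0.05 (limma), 16, 17, 21 and 19 collagen probes were still higher. Each of these fits also called 0 of all 26423 probes, so the loss of calls was not particular to the collagens. Leaving out arrays cannot undo the separation, so these fits cannot compare its stability with that of the calls. Without day 28, 3 were called, namely Col8a1, Col12a1 and Col14a1. With each array scaled to the 75th percentile of its found spots, or with no scaling, only Col8a1 was called. The count of probes with every TAB array above every sham array stayed at 12 under these settings. Across these scalings the calls were thus less stable than the separation.

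**Figure D1:**
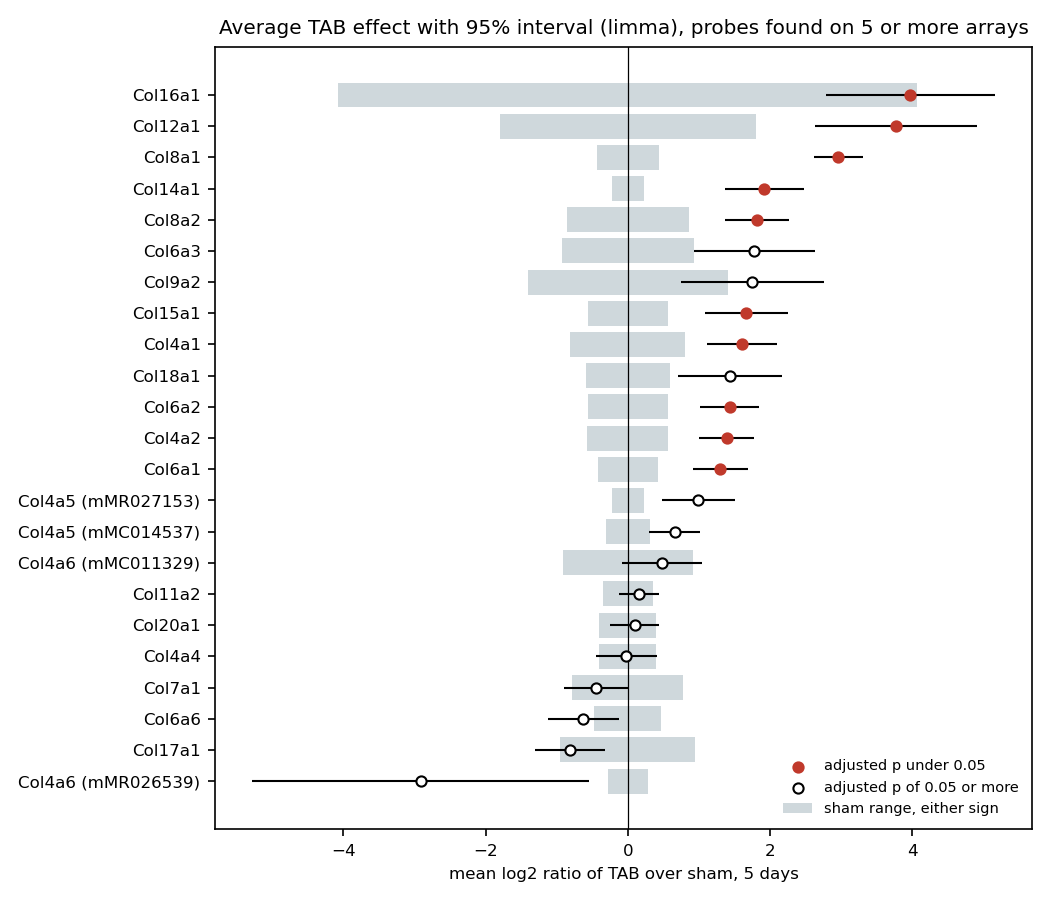
Mean log2 ratio of TAB over sham over the 5 days (points) with its 95% interval from limma (lines) for the 23 collagen probes found on at least 5 arrays, ordered by that ratio. Grey bars show the distance between the highest and the lowest sham array of the same probe, drawn to either side of 0, and filled points mark the 10 probes with an adjusted p under 0.05, all of them to the right of 0.

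Col4a1 and Col4a2 encode the 2 chains that wind together into the common form of type IV collagen, present in nearly all basement membranes. Col4a1 measured 4671, 5597, 3616, 4700 and 3235 from day 3 to day 28 after TAB, and 1855, 1057, 1363, 1752 and 1181 in the sham hearts of the same days. The lowest TAB array was thus well above the highest sham array, and the sham level was lowest on day 5, when the TAB level was highest. The average difference was 1.60 on the log2 scale (SE 0.20, n = 5 days, limma adjusted p = 0.0447), a 3.04-fold rise.

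Col4a2 measured 12450, 13720, 11390, 12920 and 8152 after TAB and 5185, 3518, 4839, 5227 and 3586 after sham. It had the same shape as its partner, with the highest TAB array and the lowest sham array on day 5, and no overlap between operations. It rose by 1.39 on the log2 scale (SE 0.16, n = 5 days, limma adjusted p = 0.0418), or 2.62-fold.

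The RefSeq promoter windows of this pair, each from 250 bases before to 50 bases after a transcript start, lie on chromosome 8 of GRCm38.p6 and overlap. The Col4a2 start at 11312805 on the plus strand and the Col4a1 start at 11312826 on the minus strand have 20 bases between them. The windows share 78 bases, from 11312777 to 11312854.

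The other type IV chains differed from this pair. Col4a5, found in more specialised basement membranes, has 2 probes that were found on all arrays and read the same way. The probe with the larger difference measured 403.5, 459.2, 336.1, 319.5 and 201.8 after TAB against 170.9, 175.0, 148.8, 166.7 and 175.0 after sham. Every TAB array was above every sham array, but the average difference of 0.99 (SE 0.20, n = 5 days) did not pass the threshold (limma adjusted p = 0.0684). The other Col4a5 probe had a log2 difference of 0.66 (limma adjusted p = 0.0735).

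Col4a4, a chain of the kidney and inner ear network, had 1 probe found on all arrays, and the log2 difference was -0.02 with a 95% interval from -0.45 to 0.41. Its other 2 probes were found on no array. Col4a3, which shares that network, was found on the TAB arrays of days 7, 14 and 28 and on no sham array. It measured 27.78, 84.95 and 60.98 on those 3 TAB arrays, and the 5 sham arrays ran from 7.82 to 23.29. The log2 difference was 1.16, with a 95% interval from 0.19 to 2.13, or 2.23-fold. Raising each sham value to at least the lowest signal of found spots on its array left 2.23-fold. Raising it to the 1st percentile of found spots gave 1.35-fold. These are no lower bounds, because the unfound TAB spots of days 3 and 5 entered as measured, at 15.46 and 17.74. Col4a3 was not called (limma adjusted p = 0.145).

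The 2 probes of Col4a6 went against each other. One was found on all TAB arrays and on 4 of 5 sham arrays, with a log2 difference of 0.48 (limma adjusted p = 0.256). The other was found on all sham arrays, between 46.44 and 56.46, but on the TAB arrays of days 5 and 28 only, at 37.6 and 36.85, and had a log2 difference of -2.91 (limma adjusted p = 0.138). For this second probe every TAB array lay below every sham array, but the -2.91 rests on TAB spots not found on days 3, 7 and 14. It was -0.65 with 50 added and -0.63 with a floor at the 1st percentile of found spots. The probe was called lower with 50 added (limma adjusted p = 0.0345) and with a floor at the lowest found spot (0.0421). Neither probe was called in the main fit and the 2 disagree, so no direction can be given for this gene.

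Col15a1 and Col18a1 encode multiplexins, collagens of basement membrane zones whose end fragments, restin and endostatin, are known for their effect on vessels. Col15a1 measured 465.2, 522.8, 381.7, 381.9 and 182.6 after TAB and 145.2, 98.47, 130.0, 108.3 and 101.7 after sham. The TAB level of day 28 was the lowest of the 5 but still above every sham array. The gene rose by 1.66 on the log2 scale (SE 0.23, n = 5 days, limma adjusted p = 0.0491), or 3.16-fold.

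Col18a1 measured 832.1, 1330, 1015, 734.1 and 402.1 after TAB and 302.6, 267.4, 258.2, 389.4 and 278.7 after sham. The operations did not overlap, yet the TAB array of day 28 was close to the sham array of day 14. The log2 difference of 1.44 (SE 0.29, n = 5 days) missed the threshold (limma adjusted p = 0.0681). By day its log2 ratio was 1.46, 2.31, 1.97, 0.91 and 0.53.

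Type VI collagen is assembled from 3 chains, of which Col6a1 and Col6a2 are always needed and Col6a3 is the usual long partner. Col6a1 measured 3553, 3678, 3198, 3406 and 2300 after TAB and 1363, 1084, 1357, 1449 and 1227 after sham. The 2 ranges were far apart, and the sham arrays spread over only 0.42 on the log2 scale. Col6a1 rose by 1.30 (log2, SE 0.15, n = 5 days, limma adjusted p = 0.0430), or 2.47-fold.

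Col6a2 measured 384.8, 402.7, 318.0, 377.0 and 246.0 after TAB and 145.2, 100.3, 128.9, 148.0 and 116.9 after sham. It followed Col6a1 in shape, with its highest TAB and lowest sham array on day 5. It rose by 1.43 (log2, SE 0.17, n = 5 days, limma adjusted p = 0.0430), or 2.69-fold.

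Col6a3 measured 1643, 1664, 1374, 930.7 and 462.1 after TAB and 429.7, 225.4, 318.1, 347.2 and 316.6 after sham. All TAB arrays were above all sham arrays, but the TAB array of day 28 exceeded the highest sham array only slightly. The log2 difference of 1.78 (SE 0.34, n = 5 days) was larger than that of the other 2 chains and less even over the days, and it was not called (limma adjusted p = 0.0644). Its log2 ratio was 1.93, 2.88, 2.11, 1.42 and 0.55 from day 3 to day 28.

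The remaining type VI chains, which can take the place of Col6a3 in some tissues, gave no call. Col6a6 had 1 probe found on all arrays, with a log2 difference of -0.63 (SE 0.20, n = 5 days, limma adjusted p = 0.131) and TAB below sham on every day, though the TAB array of day 3 reached into the sham range. Its other probe was found on 1 sham array. Col6a4 was found on 2 sham arrays and no TAB array, and Col6a5 on none.

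**Figure D2:**
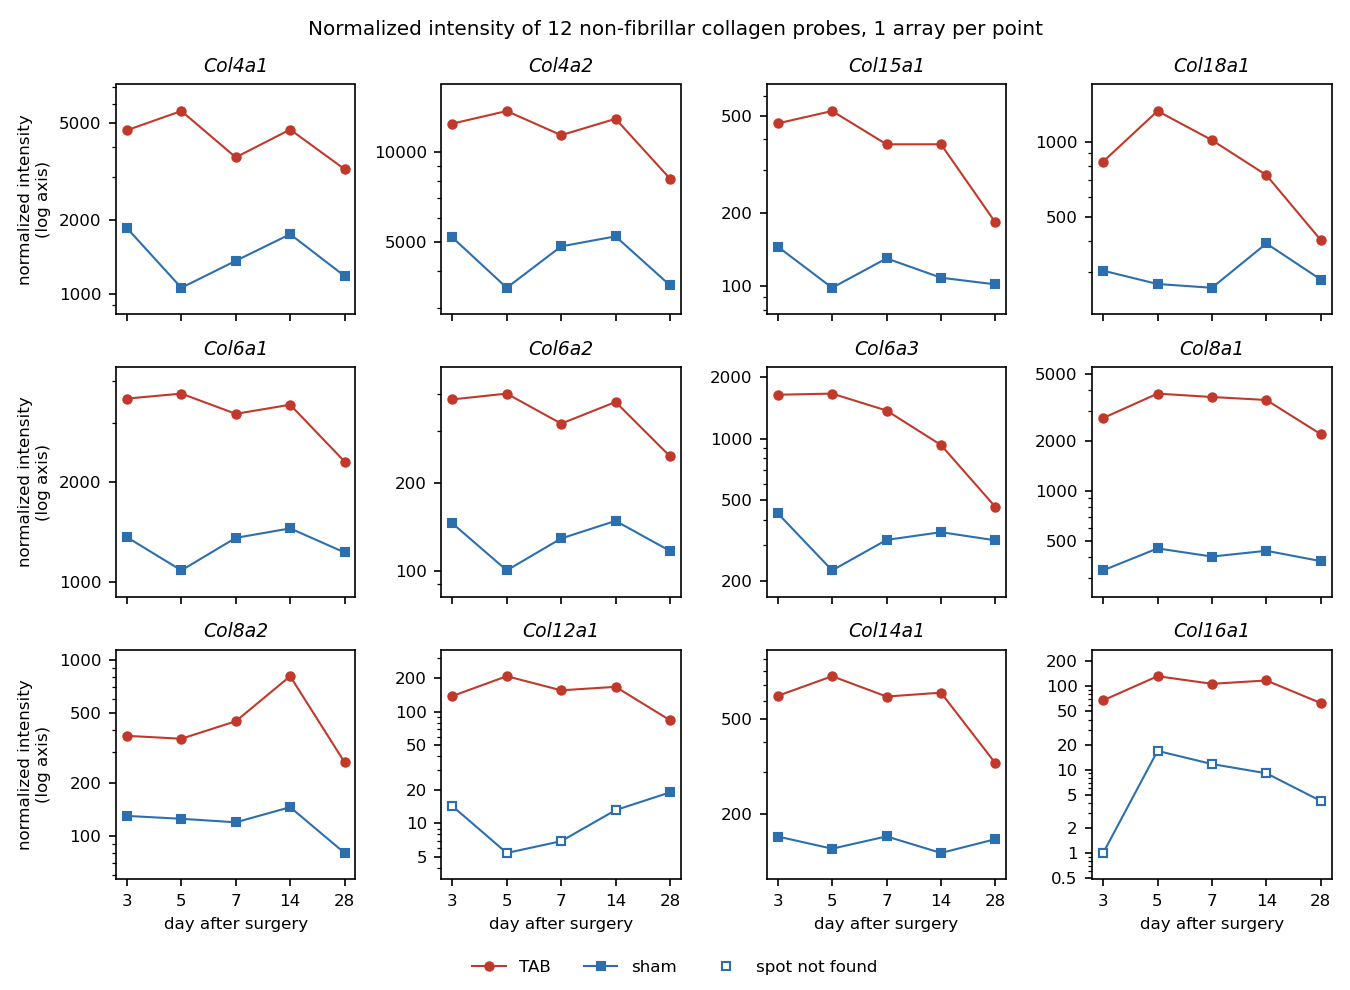
Normalized intensity (log axis, a scale of its own in each panel) against day after surgery for 12 collagen probes, with 1 array per point, TAB as red circles, sham as blue squares and open symbols for spots not found. In each panel the 5 TAB points lie above the 5 sham points, with the smallest gap in Col18a1 and Col6a3.

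Type VIII collagen is a short-chain collagen that forms hexagonal lattices and is known from vessel walls. Its chain Col8a1 had the largest difference among the 18 collagen probes found on all arrays. It measured 2731, 3825, 3649, 3503 and 2185 after TAB and 333.7, 451.9, 403.8, 437.3 and 379.2 after sham. The lowest TAB array was several times the highest sham array, and the log2 ratio stayed between 2.53 and 3.18 on all days. Col8a1 rose by 2.96 (log2, SE 0.14, n = 5 days, limma adjusted p = 0.0149), or 7.80-fold, with a 95% interval from 2.62 to 3.31 that lies above that of every other collagen probe found on all arrays except Col6a3, whose upper end is 2.63.

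Col8a2 measured 369.5, 355.7, 446.9, 804.8 and 261.7 after TAB and 129.9, 125.1, 119.5, 145.6 and 80.08 after sham. Its peak was on day 14, unlike that of the other called genes, all of which had their highest TAB array on day 5. It rose by 1.82 (log2, SE 0.18, n = 5 days, limma adjusted p = 0.0406), or 3.53-fold. Col10a1, the third short-chain collagen, is known from growth cartilage and was found on no array.

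The stretches before the starts of both type VIII genes are shown because these 2 chains rose together. They are the 150 bases before the RefSeq start, 5′ to 3′ on the gene's strand, at chr16:57754738-57754887 (minus strand) for Col8a1 and chr4:126286644-126286793 (plus strand) for Col8a2 in GRCm38.p6. Capitals mark the GC box GGGCGG or its reverse complement.
Col8a1: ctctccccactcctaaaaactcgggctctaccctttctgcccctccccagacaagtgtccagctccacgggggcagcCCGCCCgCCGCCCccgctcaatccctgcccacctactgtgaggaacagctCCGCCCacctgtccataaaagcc
Col8a2: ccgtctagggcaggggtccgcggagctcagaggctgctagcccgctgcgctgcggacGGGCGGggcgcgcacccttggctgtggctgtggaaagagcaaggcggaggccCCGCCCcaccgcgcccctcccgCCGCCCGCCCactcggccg

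Col8a1 holds 3 GC boxes in this stretch and Col8a2 holds 4, of which 2 overlap. Of all 32851 RefSeq windows, 32.7% hold at least 1 GC box in the 250 bases before the start. The TATA box TATAAA, the MCAT element GGAATG and the AP-1 site TGANTCA, searched on both strands in the same 250 bases, were in neither gene, and were in 12.4%, 12.6% and 6.75% of all windows. The CCAAT box CCAAT was in neither gene and in 33.8% of windows. The SMAD repeat CAGACA was in Col8a1 once and not in Col8a2, and in 17.1% of windows. Promoter windows were at hand for 30 of the 35 genes, and these matches describe the letters only.

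Among the FACIT chains, Col14a1, which sits on fibrils of the interstitium and of the vessel wall, was the called one found on all arrays. It measured 627.6, 758.9, 623.4, 647.3 and 327.4 after TAB and 161.2, 143.3, 161.4, 137.5 and 157.1 after sham. The sham arrays were nearly flat, within 0.23 on the log2 scale, while the TAB array of day 28 was about as far below the other TAB arrays as it was above sham. The gene rose by 1.92 (log2, SE 0.22, n = 5 days, limma adjusted p = 0.0418), or 3.79-fold.

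Col12a1, a FACIT chain known from tendon and from tissue under tension, measured 138.3, 208.2, 155.6, 167.2 and 84.04 after TAB. In the sham hearts it measured 14.30, 5.44, 6.937, 13.16 and 18.98, and the spot was found only on day 28. The log2 difference was 3.77 (SE 0.46, n = 5 days, limma adjusted p = 0.0446), which rests on sham values mostly below detection and so has no exact fold. It was 3.51 with a floor at the lowest found spot of each array and 2.54 with a floor at the 1st percentile of found spots.

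Col16a1, which connects fibrils and basement membranes, measured 67.93, 132.5, 107.4, 117.7 and 63.06 after TAB. It was found on no sham array, where it measured 1.0, 16.81, 11.68, 9.053 and 4.211, the value of day 3 having been set to the floor of 1. Its TAB mean was at least 9.20-fold above sham, with each sham value taken as the higher of its own and the lowest signal of found spots (limma adjusted p = 0.0444 for the measured values), and at least 3.82-fold with their 1st percentile. The filter of the study's methods, which removes a probe below 1 on any array, would have dropped this gene.

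The other FACIT chains were not called. Col9a2, a cartilage collagen, was found on all TAB arrays and on 4 of 5 sham arrays. It measured between 50.94 and 189.2 after TAB and between 14.36 and 38.09 after sham, with a log2 difference of 1.75 (SE 0.41, n = 5 days, limma adjusted p = 0.0798). Its partner chains Col9a1 and Col9a3 were found on no array, and neither were the cartilage genes Acan, Matn1, Matn3 and Hapln1. The fifth cartilage marker, the transcription factor Sox9, was found on all 5 TAB arrays, between 51.78 and 114.8, and on no sham array, where it measured between 7.512 and 16.12. By the bounds used for Col16a1 it was at least 6.37-fold higher after TAB, or at least 3.34-fold with the 1st percentile (limma adjusted p = 0.0430 for the measured values). Col20a1 had a log2 difference of 0.10 with a 95% interval from -0.25 to 0.44. Col22a1, known from muscle-tendon junctions, was found on 1 TAB array, and Col19a1 on none.

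A few chains outside the networks and filaments read lower after TAB without a call. Col17a1, a transmembrane chain of hemidesmosomes, measured 72.23, 89.13, 59.80, 88.99 and 105.9 after TAB and 151.0, 132.6, 155.4, 101.2 and 195.3 after sham. TAB was below sham on every day, but the TAB array of day 28 was above the sham array of day 14, and the log2 difference of -0.82 (SE 0.20, n = 5 days) was not called (limma adjusted p = 0.0862). Col7a1, the anchoring fibril collagen, had a log2 difference of -0.45 (limma adjusted p = 0.208). Col13a1, also a transmembrane chain, was found on 1 TAB array.

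Col23a1, Col24a1, Col25a1, Col27a1 and Col28a1 were found on no array, with both probes of Col24a1 among them. Together with Col6a5, Col9a1, Col9a3, Col10a1 and Col19a1 they make 10 genes for which these arrays give no level. Col11a2 was found on all arrays and had a log2 difference of 0.15 with a 95% interval from -0.13 to 0.44.

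Taken by day, the response of most called genes was largest on day 5. In 9 of the 10 the highest TAB array was that of day 5, and in 7 the highest log2 ratio was on day 5 as well. The lowest sham array was that of day 5 in 6 of the 10, so both operations entered the high day 5 ratio. In 9 of the 10 the mean log2 ratio of days 14 and 28 was below that of days 3 to 7, the exception being Col8a2, with 1.64 early and 2.09 late. Day 14 alone was not lower throughout. Its ratio was above those of both day 3 and day 7 in Col4a1, Col4a2, Col8a2, Col14a1 and Col15a1, and not in the other called genes. In 9 of the 10 the ratio exceeded the whole range of the sham arrays on all 5 days, Col16a1 being the exception.

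The study's rule for a single day calls a probe whose log2 ratio lies beyond 2 SDs of that day. It called 6, 13, 3, 9 and 7 of the 41 collagen probes up in the order of the days, or between 7.32% and 31.7% of them. Over all probes the shares were 3.02%, 3.53%, 3.63%, 3.86% and 4.14%. In 3, 9, 3, 7 and 5 of these calls the spot was found on at least 1 of the day's 2 arrays. Only Col8a1, Col12a1 and Col16a1 were called up on all 5 days. The rule called 2, 0, 2, 1 and 0 collagen probes down, against 2.58%, 2.4%, 3.08%, 3.02% and 3.11% of all probes, with the second Col4a6 probe on days 3, 7 and 14, Col13a1 on day 3 and Col9a1 on day 7.

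A single day has 1 array per operation and therefore no test. Between sham arrays of different days, the same rule called between 1 and 6 of the 41 collagen probes in either direction over the 10 pairs, with a median of 3. Over all 26423 probes it called between 1713 and 2006, so the median collagen count between sham arrays was near that share. Between TAB and sham there were 8, 13, 10 and 7 calls in either direction on days 3, 5, 14 and 28, all above the collagen range between sham arrays. Day 7 had 5, within that range. All these counts include spots not found, and the up calls with a found spot were 3, 9, 3, 7 and 5 in the order of the days. The excess on days 3 and 28 thus rests partly on values near the floor.

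**Figure D3:**
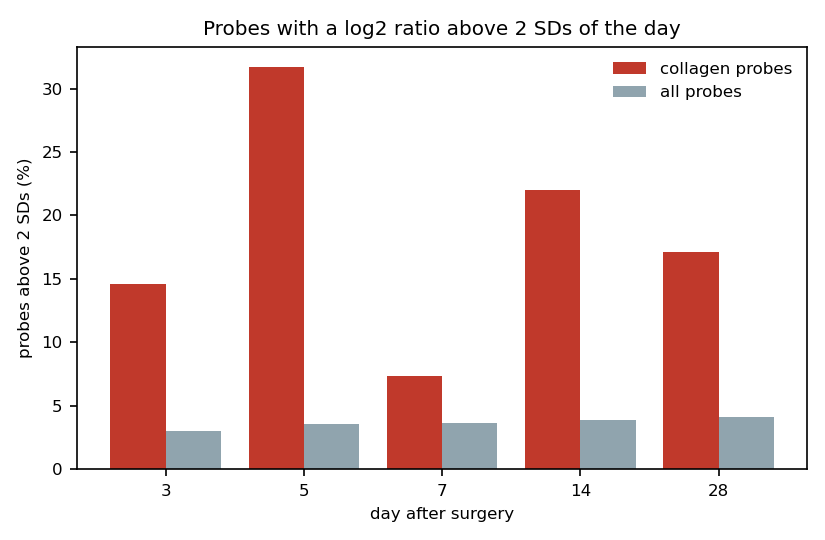
Percent of probes whose log2 ratio of TAB over sham lies above 2 SDs of the day, for the 41 collagen probes (red) and all 26423 probes (grey), by day after surgery. The collagen share is highest on day 5 at 31.7% and lowest on day 7 at 7.32%, and the share of all probes stays between 3.02% and 4.14%.

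A direct test of whether the TAB effect of days 3 to 7 differed from that of days 14 and 28 called 0 collagen probes and 0 of all probes (limma, lowest adjusted p among the collagens 0.574). At an unadjusted p under 0.05 there were 6 of the 41 collagen probes and 2140 of all 26423 probes. The ratio was higher early in Col6a3 and Col18a1. It was higher late in Col4a3, Col13a1, Col22a1 and Col23a1, which were found on 3, 1, 1 and 0 of the 10 arrays. Among the probes found on all arrays the largest early surplus was in Col6a3, with a mean log2 ratio of 2.31 early and 0.98 late, and in Col18a1, with 1.92 and 0.72. In simulated data the test found 0% of probes with a log2 difference of 1 or of 2, so it had no power at this size, and the early and late values stand as descriptions.

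**Figure D4:**
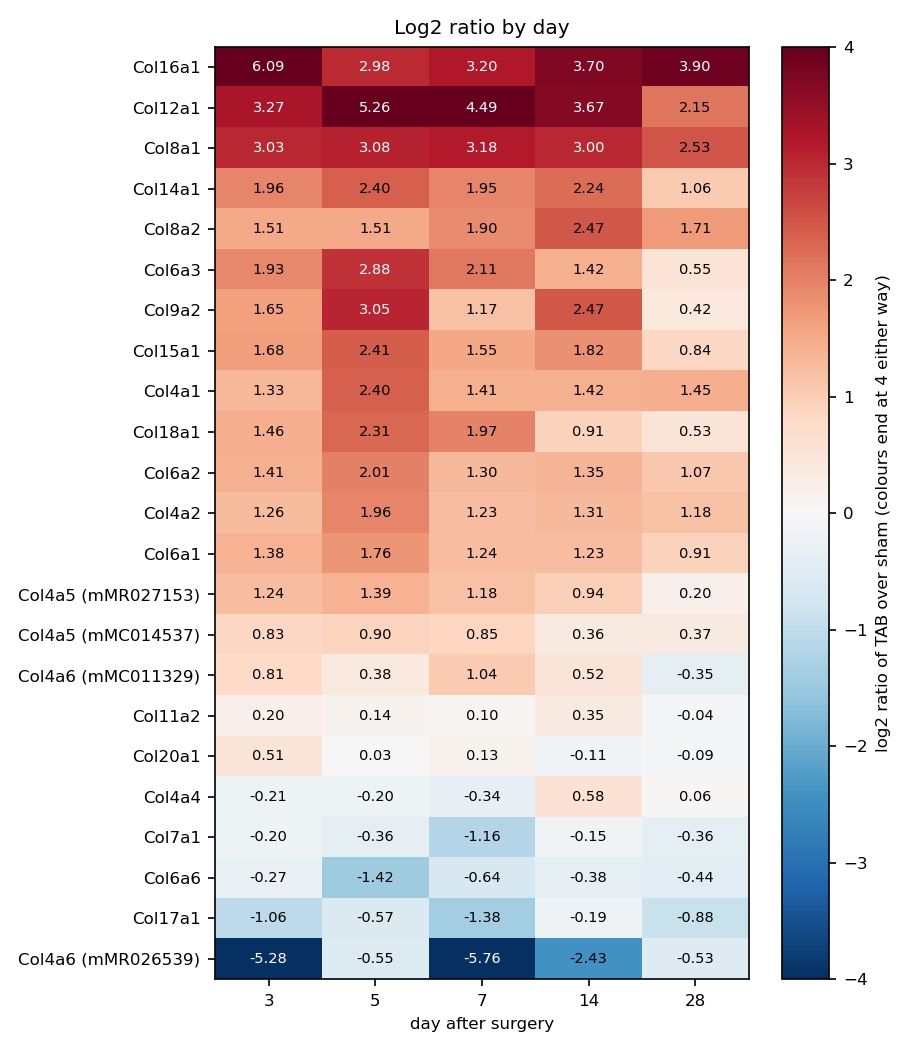
Log2 ratio of TAB over sham on each day (columns) for the 23 collagen probes found on at least 5 arrays (rows, ordered by the average over the days), red for higher and blue for lower after TAB. Col8a1 stays between 2.53 and 3.18 on all days, whereas Col6a3 goes from 2.88 on day 5 to 0.55 on day 28 and Col18a1 from 2.31 to 0.53.

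The partners of collagen in the basement membrane were taken by the brightest probe of each gene. Of 20 such genes on the array, 1 (5.0%) was called higher and 0 lower, against 0.999% and 0.401% of all probes. Their median log2 difference was 0.41 against -0.05 over all probes. Whether they differed from the collagens was not tested. The called gene was Sparc, a matrix protein that binds type IV collagen, with a log2 difference of 1.65 (limma adjusted p = 0.0406). Lamc1, the laminin chain that most laminins share, had 0.79 (limma adjusted p = 0.0501), the nidogens Nid1 and Nid2 had 0.65 and 0.63, and the perlecan gene Hspg2 had 0.41, all without a call. The laminin chains Lama4, Lamb1 and Lama2 had 0.66, 0.60 and 0.41 (limma adjusted p = 0.0695, 0.0812 and 0.172). In each of these, every TAB array lay above every sham array. Other laminin chains read lower after TAB, also without a call. Lama1 had -0.94 (limma adjusted p = 0.0674), with every TAB array below every sham array, Lamb3 had -0.83 (limma adjusted p = 0.094) and Lama5 had -0.31 (limma adjusted p = 0.204). Serpinh1, a chaperone of collagen folding, had 1.14 (limma adjusted p = 0.113).

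The fibrillar chains outside the rule gave 3 calls of 8, all higher, in Col1a2, Col3a1 and Col5a2, with log2 differences of 3.49, 3.68 and 3.05. The probe of Col1a1 was found on no array.

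The samples are whole tissue, in which more cells of a type and more RNA per cell cannot be told apart. All 6 leukocyte markers measured lay higher on every TAB array than on every sham array, 2 of them called, and their summed intensity was 2252 to 5543 after TAB and 1421 to 1745 after sham. Of 8 fibroblast markers 1 was called, Postn, a matrix protein of activated fibroblasts, and the sum was 49960 to 64100 after TAB and 39080 to 43650 after sham. Without Postn the sum was 40280 to 51050 after TAB and 37710 to 42400 after sham, and the ranges overlapped. Dcn, at 25920 to 35920 on the 10 arrays, made up most of that sum. Of these 7 genes, Lum with 0.60 and Dcn with 0.19 lay higher on every TAB array than on every sham array (limma adjusted p = 0.080 and 0.338). Gsn had -0.53, and 5 of the 7 had a positive log2 difference. Of 7 endothelial markers 0 were called (0 also at an unadjusted p under 0.05, limma), with sums of 7485 to 10280 and 6940 to 8277. Of 8 smooth muscle and pericyte markers 0 were called, with sums of 2661 to 3188 and 2511 to 3340, and Cnn1 and Pdgfrb were found on no array. The sums hide opposite movements, 4 of the 8 having a positive log2 difference. At an unadjusted p under 0.05 (limma) there were 2, Tagln with 2.72 and Cspg4 with 0.65, both higher on every TAB array than on every sham array. Tagln was found on 4 TAB arrays and 0 sham arrays. Acta2 had a mean log2 ratio of 1.13 on days 3 to 7 and -0.38 later, and Rgs5 had -0.59 over the days. Of 8 cardiomyocyte markers 0 were called, with sums of 246500 to 256400 after TAB and 253800 to 279200 after sham. At an unadjusted p under 0.05 (limma) 2 were lower, Tnni3 with -0.44 and Ryr2 with -0.36. Myl2, part of the sum, read 65500 on every array but the sham array of day 28, so it could hardly show a change. Of 4 atrial markers 1 was called, Nppa, a natriuretic peptide that the loaded ventricle also makes, with a log2 difference of 1.81 (limma adjusted p = 0.0410). The light chain gene Myl7 lay lower on every TAB array than on every sham array, with -0.81 (limma adjusted p = 0.193), Sln had -0.91 and Myl4 had -0.40, without a call. All 4 had their highest sham array on day 14, at 16050 for Nppa, 3854 for Myl7, 1756 for Sln and 4350 for Myl4, and the log2 ratio of that day was -2.24 for Myl7 and -2.76 for Sln. The part of atrial tissue and of these cell types in the collagen differences was not tested.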

How the data were processed

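RNA of 10 left ventricle samples (5 TAB, 5 sham, grouped by the sample titles) was labelled with Cy5 and read in 1 colour on the Mouse Whole Genome OneArray v2. The authors deposited raw intensity per probe and array, with a background subtracted by a method not given in the sources used here and no scaling between arrays. The deposited detection p-values, whose computation is not stated, were not used. The deposited flag takes 2 values, and the negative one was read as a spot not found.

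Arrays were brought to 1 median, after the study's methods, and quantile normalization gave each rank its median over all 10 arrays. The methods take rank medians per condition, which was run as normalization within each operation. Values below 1 were set to 1 and taken to log2. Differences that rest on spots not found depend on the floor. limma 3.58.1 (R 4.3.3) fitted the TAB effect with day as a block over all 26423 probes, with Benjamini-Hochberg adjustment, and a second fit took days 3 to 7 apart from days 14 and 28. For a day, a log2 ratio beyond 2 SDs over all probes was called, as in the methods, without a test. Where a group had no found spot, its values below the lowest signal of found spots of the array were raised to that signal, and higher values were kept. The values of the other group stayed as measured, so the result is a lower bound only where all its spots were found.

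On simulated data of the average effect over 26423 probes, 43% of probes changed by 1 and 83% of those changed by 2 on the log2 scale were recovered, with 12 false calls. In both simulations the changed probes were drawn from brighter probes only, so these shares do not apply to collagen probes near the floor. Named genes were Col4a1, Col4a2, Col6a1 to Col6a3, Col8a1, Col12a1, Col14a1, Col15a1, Col16a1 and Col18a1, the brightest probe of each, and every further called collagen probe. The members, the gene lists and the tests were chosen with earlier results of these data known. All 35 symbols are current in RefSeq, and 5 genes have several probes, which were kept apart. Promoter windows came from RefSeq (GRCm38.p6). The build behind the array's probes, and probe sequences, were not used here. Alternatives changed the scaling, the floor, the filter, the fit and the days.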

Additional observations from a re-analysis of the deposited data

Results flagged for a closer look

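In 41 groups of 5 found spots of the collagen probes, 2 arrays stood apart from the other 4 by more than Dixon's 95% critical value, a number that chance alone gives at about 1 in 20 groups. Col14a1 on the TAB array of day 28 was the lowest at 327.4, with the nearest TAB array at 623.4. Col7a1 on the sham array of day 14 was the lowest at 68.09, with the nearest sham array at 100.9.

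For 2 of the 18 collagen probes found on all arrays, every early day and every late day lay on opposite sides of 0. Col20a1 had a mean log2 ratio of 0.22 on days 3 to 7 and -0.10 on days 14 and 28 (limma test of the difference, adjusted p = 0.728). Col4a4 had -0.25 early and 0.32 late (limma, adjusted p = 0.647). Neither difference passed the threshold.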

How the results depend on the processing

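For 12 of the 18 collagen probes found on all arrays, the operations stayed separate under each of 10 other scalings, floors and filters. The count of 10 collagen probes called higher became 1 with scaling to the 75th percentile of found spots or with raw intensity, both chosen after seeing the data, was 10 to 15 under the other 12 settings, and ran from 0 to 3 with a day left out. With probes found on at least 5 arrays only, Col6a3, Col9a2, Col18a1 and both Col4a5 probes were also called higher, and Col17a1 and Col6a6 were called lower. The count of 0 called lower became 1 without probes below 1 on any array and with no day block, 2 with trend and robust moderation or with probes found on at least 5 arrays only, 3 with 50 added and 6 with the floor at the lowest found spot, a floor that differs between arrays. Over all probes, 370 calls became 2836 without probes below 1, 4277 with 50 added, 8464 with the lowest-spot floor, 4131 with found probes only, 29 with the 75th percentile, 19 with raw intensity, 1529 with the floor at the 1st percentile (also chosen after seeing the data), 672 and 1130 with 1 probe per gene by change and by brightness, 2813 with no day block and 4351 with trend and robust moderation, and ran from 0 to 108 with a day left out. The median log2 ratio of all probes moved from -0.05 to -0.26 with the lowest-spot floor and to 0.11 with the floor at the 1st percentile, and stayed between -0.11 and 0.01 under the others. That of the 41 collagen probes moved from 0.76 to 0.10 with 50 added and to 0.11 with either of these floors. Under the other settings it stayed between 0.70 and 1.39. The share of calls that were higher was 71.4%, against 82.4% with median scaling only, 82.8% with the 75th percentile, 84.2% with raw intensity, 52.6% without probes below 1, 48.6% with 50 added, 22.9% with the lowest-spot floor, 62.7% with the floor at the 1st percentile, 48.7% with found probes only, 56.3% with no day block and 49.5% with trend and robust moderation. Pairing by day was checked by the correlation of same-day deviations, which ran from -0.049 to 0.145, and 1 of 5 TAB arrays correlated best with the sham array of its own day, so same-day arrays shared little. Early against late, trend and robust moderation called 34 of all probes and 0 collagen probes. Day calls summed over the 5 days were 38 up and 5 down among the collagens and 8555 in all. They became 97, 17 and 32481 with a log2 ratio of at least 1. The 38 became 65 with 50 added and 61 with the floor at the 1st percentile. The 5 became 3 with spots found on the day or with found probes only. The 8555 became 2345 and 3275 under those settings, 5575 without probes below 1 and 5515 with the floor at the 1st percentile. Among 430 values of single probes, 6 turned sign, all near 0: Col4a4 was 0.05 with median scaling and with normalization within each operation, and ran from -0.17 to 0.06 with a day left out, above 0 without day 3, 5 or 7, and Col20a1 ran from -0.01, without day 3, to 0.15. The cause was not tested. Signal over background limits the 13 probes found on no array.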

Other observations

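The Col26a1 gene, which the array lists as Emid2, encodes a collagen with an EMI domain. Its probe was found on the TAB arrays of days 5 and 14, at 46.68 and 54.49, and on no sham array, where it measured between 5.867 and 9.597. The TAB mean was 4.19-fold above sham by the measured values, most of them not found (limma adjusted p = 0.0487). It was 3.39-fold with each sham value raised to at least the lowest signal of found spots, and 1.25-fold with their 1st percentile. These are no lower bounds, because the unfound TAB spots of days 3, 7 and 28 entered as measured.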
